A study of Homo sapiens with 15 samples.

Results

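Fatty acid synthesis, elongation and desaturation are represented here by 10 genes, chosen by name for their place in the pathway. The choice was made with earlier results of these data known. Each gene was read as its row in the deposited table of 58735 genes. They are SREBF1, ACLY, ACSS2, ACACA, FASN, ELOVL5, ELOVL6, SCD, FADS1 and FADS2. Each of the 10 had enough reads to pass the filter on low counts, and 15565 genes in all were tested.

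RNA was sequenced from A549, an established human lung adenocarcinoma line, in 15 libraries of 5 groups with 3 libraries each. The control group received the solvent dimethyl sulfoxide (DMSO) for 24 h. The 4 remaining groups received PM2.5, which is fine airborne particulate matter, at 100 µg/mL for the same time. They are named by the codes CDSUM, CQSUM, CDWIN and CQWIN, which the labels do not spell out. Nothing in the labels says that libraries of 1 group stem from separate cultures, and p-values here reflect only how much these libraries vary.

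Cells make fatty acids from acetyl-CoA, which ACLY releases from citrate and ACSS2 forms from acetate. ACACA turns acetyl-CoA into malonyl-CoA, FASN joins these units into palmitate, elongases of the ELOVL family lengthen the chain, and desaturases (SCD, FADS1, FADS2) put double bonds into it. SREBF1 encodes SREBP1, a transcription factor of the endoplasmic reticulum membrane that is cut free when sterols are low and then switches on genes of this pathway. In the lung, alveolar type II cells use it to supply the phospholipids of surfactant.

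The desaturase SCD was higher than in DMSO in all 4 PM2.5 groups, and in CQWIN it stood 4.29-fold above DMSO. ACLY was lower in all 4, by 1.80- to 2.36-fold. The desaturase FADS1 and the elongase ELOVL6 were each higher in 3 of the 4 groups. Among these increases, the calls of SCD in CDSUM, FADS1 in CQSUM and ELOVL6 in CDWIN each ended without at least 1 of the libraries compared. SREBF1 and FASN were lower in some groups, but those decreases were not called once trends with GC content and gene length had been removed from the counts. SREBF1 was then called higher in CDWIN and CQWIN, and FASN in CDWIN. Between PM2.5 groups, SCD and FADS1 were 2 of the 3 genes called for CQWIN against CQSUM among the 15565 tested. Both calls ended in a fit of these groups alone. That of SCD also ended without CQSUM 2 or CQSUM 3. That of FADS1 also ended with the trends removed and when any 1 of 5 of the 6 libraries was left out.

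Upstream sequence is shown for SCD and FADS1, whose levels ran together over the libraries, and for ACLY, which moved the other way. The lines give RefSeq sequence of GRCh38.p14, 5′ to 3′ on the strand of the gene. Each begins 250 bases before a RefSeq start of transcription. It ends at that start, or earlier where an annotated exon of the gene begins within these bases. The annotated FADS1 and ACLY genes begin farther upstream, at 61829318 and 41930542, so their stretches lie within those genes. Capitals mark CCAAT boxes (CCAAT or ATTGG) and GC boxes (GGGCGG or CCGCCC). The stretches are chr10:100346983-100347123 on the plus strand for SCD, chr11:61817198-61817253 on the minus strand for FADS1 and chr17:41919023-41919272 on the minus strand for ACLY, at the more upstream of its RefSeq starts.
SCD: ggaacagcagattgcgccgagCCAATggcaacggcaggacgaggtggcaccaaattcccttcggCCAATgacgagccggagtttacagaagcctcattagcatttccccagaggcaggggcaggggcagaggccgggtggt
FADS1: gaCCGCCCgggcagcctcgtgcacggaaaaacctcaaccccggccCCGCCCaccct
ACLY: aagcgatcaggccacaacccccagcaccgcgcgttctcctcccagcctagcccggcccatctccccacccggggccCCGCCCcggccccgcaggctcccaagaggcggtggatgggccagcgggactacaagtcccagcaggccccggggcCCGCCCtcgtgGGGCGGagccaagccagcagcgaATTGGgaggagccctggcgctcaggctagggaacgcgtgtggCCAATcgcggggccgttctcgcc
Matches were searched on both strands in the 250 bases before each RefSeq start, and 9 of the 10 genes had such a window. SCD held 2 CCAAT boxes, 229 and 186 bases before its start, and 2 GC boxes closer to it, in bases not shown. FADS1 held 2 GC boxes and no CCAAT box. The ACLY window shown held 2 CCAAT boxes and 3 GC boxes, and the window of its other start held these and 1 more GC box, 59 bases before that start. Over all 35116 windows of the table, 32.0% held a CCAAT box and 42.6% a GC box. A sterol regulatory element written as TCACNCCAC was in none of the members' windows and in 0.883% of all windows. These matches describe letters and show no binding.

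Levels differed widely within the pathway. On the deposited FPKM scale, which divides reads by gene length, ACLY led in DMSO with 112 ± 4.59 FPKM (SD, n = 3). SCD followed with 33.0 ± 2.03 FPKM, FASN with 22.5 ± 1.03 FPKM and FADS2 with 21.1 ± 2.13 FPKM. ELOVL5 had 18.9 ± 1.17 FPKM, and SREBF1 and FADS1 had 16.1 FPKM each, with SDs of 1.39 and 0.829. ACACA (4.98 ± 0.781 FPKM), ACSS2 (4.54 ± 0.194 FPKM) and ELOVL6 (1.97 ± 0.237 FPKM) were lowest. In each PM2.5 group the order changed at the top, with the mean of SCD above that of ACLY. In CQWIN SCD reached 147 ± 24.2 FPKM and ACLY 64.2 ± 16.3 FPKM. There and in CDWIN (64.3 and 51.8 FPKM) the libraries of these genes did not overlap. They did overlap in CDSUM (53.6 and 52.5 FPKM) and CQSUM (61.5 and 54.7 FPKM).

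Library sizes ran from 17583532 to 19216323 reads, of which the 10 genes took 0.117% to 0.363%, most in CQWIN (0.218% to 0.363%). Libraries differed in how read level ran with GC content: the slope of log2 CPM (the read count scaled to a common library total) per 10 percentage points was 0.15 to 0.34 in DMSO, 0.14 to 0.21 in CDSUM, 0.13 in CDWIN 2, and −0.22 to −0.11 in the other 8. CDWIN 2 thus stood apart from its group. The slope per doubling of gene length was 0.10 to 0.19 in DMSO, −0.15 to −0.073 in CDSUM, −0.090 to −0.065 in CDWIN, and −0.095 to 0.049 in CQSUM. In CQWIN it was −0.097, 0.035 and, in CQWIN 3, 0.18. The chi-square distance per degree of freedom between CQWIN 3 and CQWIN 1 was 117, and other pairs within a group had 5.14 to 58.1. The label names type II alveolar epithelial cells, yet SFTPA1 and SFTPA2 were at 0 in all 15 libraries, and 2 of 10 type II markers averaged at least 1 CPM. Summed levels of 6 epithelial markers were 8886 to 11813 CPM in DMSO and 4422 to 6007 CPM in the PM2.5 libraries, nearly all from KRT8 and KRT18, which were called lower in all 4 groups. The other markers of that list were divided. KRT19 was called higher in all 4 (0.66 to 0.78). EPCAM, at 0.923 CPM in DMSO, was called higher in 3 (1.32 to 1.97). CDH1 was called lower in CDSUM (−1.21), CDWIN (−1.23) and CQSUM (−1.02), and CLDN4 was not called. The part of these markers in the results was not tested. Summed leukocyte markers were at most 16.3 CPM.

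Fold changes below are PM2.5 over DMSO on the log2 scale with the standard error. A gene is called where edgeR's quasi-likelihood test gives an adjusted p (Benjamini-Hochberg, all genes tested) under 0.05. Against DMSO, 1 member was called higher and 5 lower in CDSUM, where 15.3% of all genes were called higher and 31.2% lower. In CDWIN the members' counts were 3 higher and 1 lower, beside 18.4% and 23.3% of all genes. In CQSUM they were 3 and 3, beside 13.7% and 18.8%. In CQWIN they were 5 and 2, beside 11.6% and 15.8%. The members' median log2 fold change was −0.50 in CDSUM, −0.07 in CDWIN, −0.07 in CQSUM and 0.46 in CQWIN. The medians of all genes were −0.25, −0.11, −0.00 and 0.02. All 4 comparisons share the DMSO libraries.

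Because the libraries differed in their GC and length slopes, each comparison was repeated with smooth trends in GC content and gene length removed from every library. The members called were then 3 higher and 2 lower in CDSUM (20.8% and 16.9% of all genes), 7 and 2 in CDWIN (17.9% and 13.7%), 5 and 1 in CQSUM (9.37% and 8.76%), and 7 and 1 in CQWIN (8.1% and 7.21%). The members' medians became 0.14, 0.41, 0.28 and 0.73 in that order, and those of all genes 0.01, 0.01, 0.02 and 0.02. Among all genes called, the share that was higher moved from 32.9% to 55.1% in CDSUM, from 44.2% to 56.6% in CDWIN and from 42.3% to 52.9% in CQWIN. With DESeq2 size factors that share was 45.1% in CDSUM, 52.3% in CQSUM (42.2% with TMM) and 50.8% in CQWIN, and the median of all genes in CDSUM was −0.10. Which of these scales is nearer to the RNA in the cells was not tested.

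**Figure D1:**
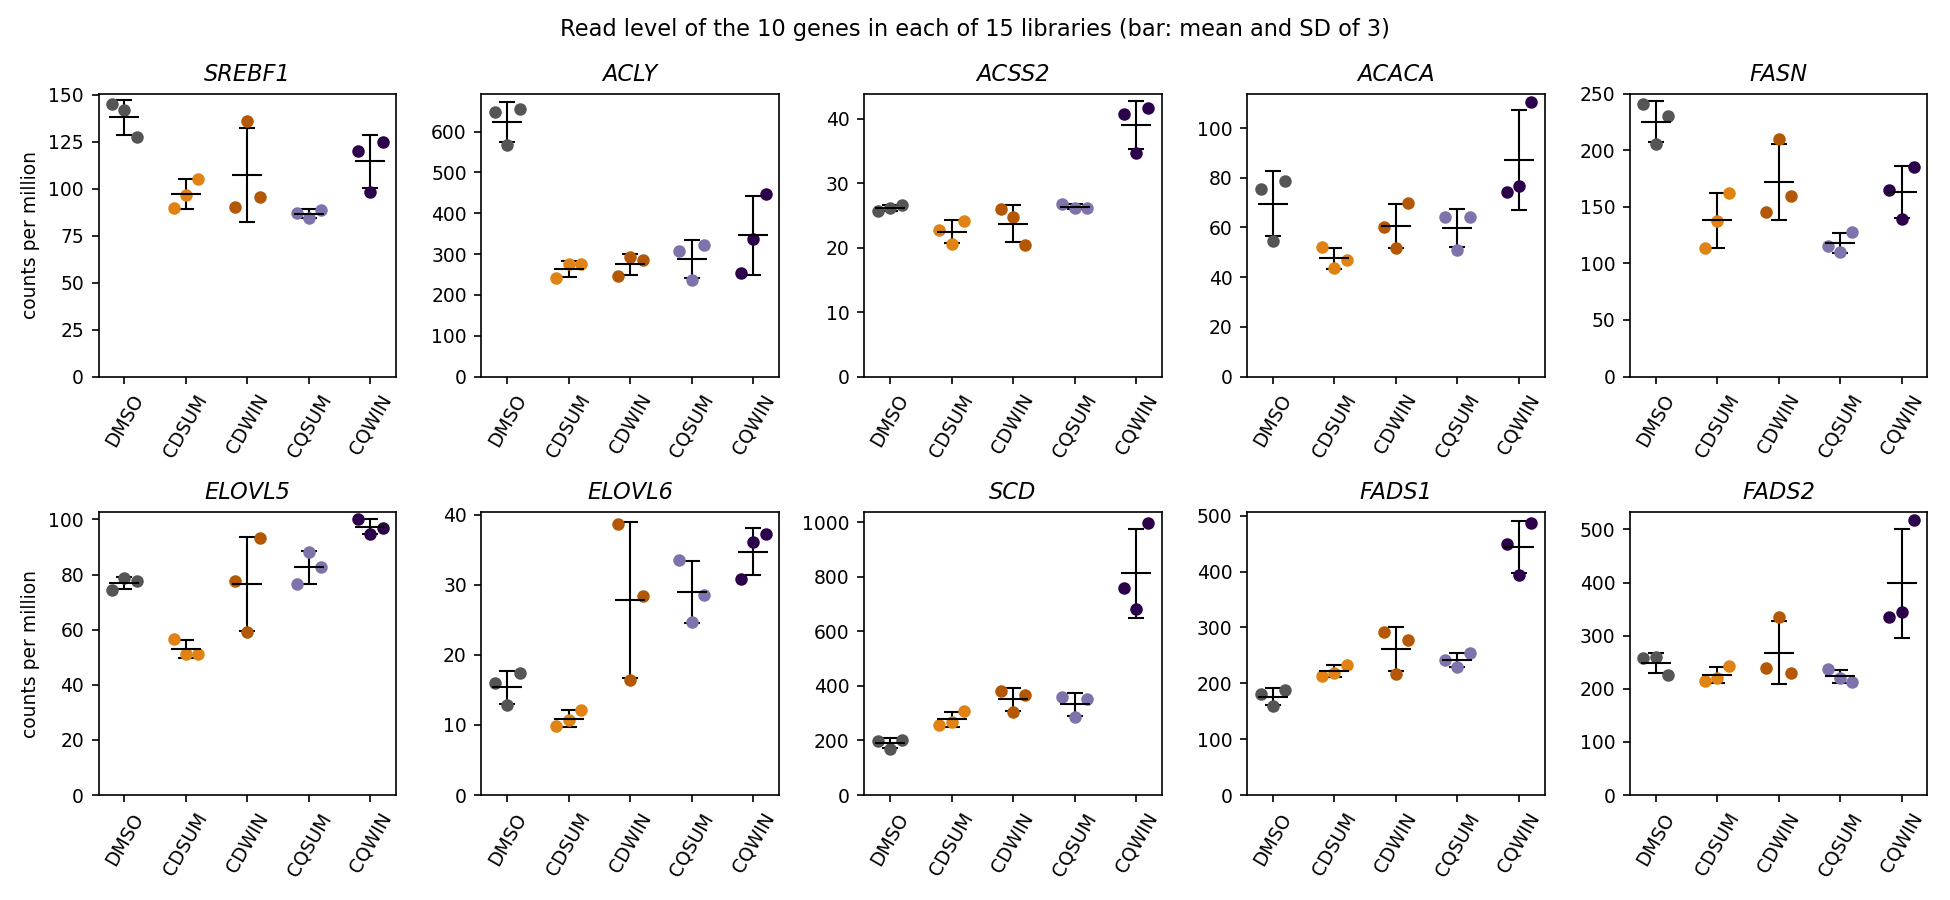
Read level of each of the 10 genes in CPM (vertical axes, from 0) in the 15 libraries by group; points are libraries in replicate order, and bars give the mean and SD of 3. The SCD points of CQWIN lie between 683 and 997 CPM, above all other SCD points, and the ACLY points of DMSO lie above all other ACLY points.

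SREBF1 (ENSG00000072310, chromosome 17, 17810399 to 17837002, GRCh38) had 145, 142 and 127 CPM in DMSO. The CDSUM libraries had 89.4, 96.7 and 105 CPM, and the CQSUM libraries 86.8, 84.1 and 88.8 CPM. Both groups lay below DMSO without overlap, by −0.51 ± 0.16 (adjusted p = 0.0132) and −0.67 ± 0.16 (adjusted p = 0.00389). CDWIN spread from 90.0 and 95.4 to 136 CPM in CDWIN 2, which overlapped DMSO. The difference there was −0.36 ± 0.16 (adjusted p = 0.0676), and without CDWIN 2 it was −0.57 and called. CQWIN had 120.1, 98.4 and 125 CPM, with a difference of −0.27 and an interval of −0.62 to 0.08. With GC and length trends removed, all 4 differences turned positive (0.24, 0.39, 0.10 and 0.46 in the order CDSUM, CDWIN, CQSUM, CQWIN), and those in CDWIN and CQWIN were called higher. The gene's longest transcript is 62.8% GC. The CDSUM call also ended without DMSO 1 (−0.47) or CDSUM 1 (−0.45). SREBF1 shares 556 exon bases with RAI1 on the other strand, and RAI1 was lower in all 4 groups.

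ACLY (ENSG00000131473, chromosome 17, 41866908 to 41930542) had 648, 568 and 654 CPM in DMSO. It had 242, 277 and 274 CPM in CDSUM, and 246, 292 and 285 CPM in CDWIN. CQSUM gave 306, 236 and 321 CPM, and CQWIN 253, 336 and 447 CPM. Every PM2.5 library was below every DMSO library. The log2 fold changes were −1.24 ± 0.18 in CDSUM (adjusted p = 0.000206), −1.18 ± 0.18 in CDWIN (adjusted p = 0.000242), −1.12 ± 0.18 in CQSUM (adjusted p = 0.000448) and −0.85 ± 0.18 in CQWIN (adjusted p = 0.00279). They were −0.97, −0.84, −0.84 and −0.65 with the trends removed, and the call held there and without any single library of the groups compared. In bulk RNA, fewer cells expressing a gene and less RNA of it per cell cannot be told apart.

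ACSS2 (ENSG00000131069, chromosome 20), the acetate-using enzyme, had 25.6, 26.1 and 26.6 CPM in DMSO and 40.7, 34.7 and 41.7 CPM in CQWIN. It was higher in CQWIN by 0.58 ± 0.14 (adjusted p = 0.00626), with no overlap. In the other groups it ranged from 20.4 to 26.8 CPM and was not called, with differences of −0.22, −0.14 and 0.01. With the trends removed, the differences in CDWIN (0.32) and CQSUM (0.41) were called higher too.

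ACACA (ENSG00000278540, chromosome 17), the carboxylase that commits acetyl-CoA to fatty acid synthesis, had 75.6, 54.5 and 78.8 CPM in DMSO and 52.2, 43.8 and 47.0 CPM in CDSUM, a difference of −0.55 ± 0.18 (adjusted p = 0.0202). That call ended without DMSO 1 (−0.48), DMSO 3 (−0.45), CDSUM 2 (−0.49) or CDSUM 3 (−0.53), and with the trends removed the value was 0.06. CQWIN reached 74.4, 76.6 and 111 CPM, a difference of 0.32 that was not called (interval −0.08 to 0.73) but was called higher at 0.54 with the trends removed.

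FASN (ENSG00000169710, chromosome 17, 82078333 to 82098332), the synthase that makes palmitate, had 241, 205 and 230.2 CPM in DMSO. CDSUM had 114, 138 and 163 CPM, and CQSUM had 116, 110.3 and 128 CPM, all below DMSO. The differences were −0.71 ± 0.17 (adjusted p = 0.00281) and −0.93 ± 0.17 (adjusted p = 0.000777). In CQWIN the libraries had 165, 140 and 185 CPM, and the difference of −0.47 ± 0.17 (adjusted p = 0.0451) was not called when any 1 of the 6 libraries was left out, with values from −0.53 to −0.23. CDWIN gave 146, 210 and 160 CPM and a difference of −0.39 (adjusted p = 0.066), which became −0.56 and was called without CDWIN 2. FASN has the highest GC content of the 10, 65.3%. With the trends removed, its values were 0.14, 0.43, −0.09 and 0.35, no decrease was called, and the increase in CDWIN was.

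The elongases differed from each other. ELOVL6 (ENSG00000170522, chromosome 4), which lengthens palmitate to stearate, had 15.9, 12.8 and 17.4 CPM in DMSO. CQSUM had 33.5, 24.7 and 28.5 CPM and CQWIN 30.9, 36.1 and 37.3 CPM, all above DMSO. The differences were 0.91 ± 0.23 (adjusted p = 0.00697) and 1.17 ± 0.23 (adjusted p = 0.00169). CDWIN split into 38.6 and 28.4 CPM in CDWIN 1 and CDWIN 3 and 16.4 CPM in CDWIN 2, which fell within the DMSO range. Its difference of 0.85 ± 0.23 (adjusted p = 0.00721) was not called without CDWIN 1 (0.54). CDSUM was below DMSO at 9.81, 10.7 and 12.2 CPM, a difference of −0.50 that was not called (interval −1.03 to 0.03). In edgeR's quasi-likelihood test its adjusted p was 0.0911 and its unadjusted p 0.0485. The 3 calls held with the trends removed (0.82, 0.74 and 0.96 in CDWIN, CQSUM and CQWIN), and the CDSUM value was then 0.04.

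ELOVL5 (ENSG00000012660, chromosome 6), an elongase of polyunsaturated chains, was called in CDSUM only, at 56.8, 51.3 and 51.0 CPM against 74.5, 78.8 and 77.7 CPM in DMSO. The difference was −0.54 ± 0.15 (adjusted p = 0.00668), and −0.37 with the trends removed, where it stayed called. CQWIN lay above DMSO at 100.2, 94.9 and 96.9 CPM, a difference of 0.34 that was not called (adjusted p = 0.0915) and was −0.01 with the trends removed. In CDWIN (−0.01) and CQSUM (0.10) the libraries overlapped DMSO. The CDWIN value was −0.30 and called lower with the trends removed.

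SCD (ENSG00000099194, chromosome 10, 100347124 to 100364834), which turns saturated chains into monounsaturated ones, had 197, 169 and 203 CPM in DMSO. The values were 256, 268 and 309 CPM in CDSUM, 381, 304 and 368 CPM in CDWIN, and 360.2, 285 and 353 CPM in CQSUM. CQWIN had 760.1, 683 and 997 CPM. No PM2.5 library overlapped DMSO, and CQWIN lay apart from all the rest. The log2 fold changes were 0.55 ± 0.17 in CDSUM (adjusted p = 0.0121), 0.89 ± 0.17 in CDWIN (adjusted p = 0.000707), 0.81 ± 0.17 in CQSUM (adjusted p = 0.00181) and 2.10 ± 0.17 in CQWIN (adjusted p = 5.46e-07). They were 0.73, 0.98, 0.84 and 2.05 with the trends removed, all called. The CDSUM call ended without DMSO 2 or without CDSUM 3 (0.47 in each case), and the other 3 held without any single library.

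FADS1 (ENSG00000149485, chromosome 11, 61799625 to 61829318), a desaturase of polyunsaturated chains, had 182, 159 and 188 CPM in DMSO. CQWIN had 450.2, 395 and 486 CPM, which was 2.52-fold higher (1.33 ± 0.15, adjusted p = 1.11e-05). CDWIN had 291, 217 and 277 CPM (0.57 ± 0.14, adjusted p = 0.0044). CQSUM had 242, 229 and 254 CPM (0.46 ± 0.14, adjusted p = 0.0211), a call that ended without DMSO 1 (0.48), DMSO 2 (0.39) or CQSUM 3 (0.42). CDSUM had 213, 219 and 233 CPM, above DMSO without overlap but not called (0.33 ± 0.14, adjusted p = 0.0665). FADS1 was called in all 4 with the trends removed, at 0.87, 1.07, 0.84 and 1.60.

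FADS2 (ENSG00000134824, chromosome 11, 61792980 to 61867354) acts in the same desaturation route and has the whole of FADS1 within its bounds, on the opposite strand. It had 258, 260.3 and 227 CPM in DMSO and 335, 344 and 518 CPM in CQWIN, a difference of 0.68 ± 0.18 (adjusted p = 0.00892) with no overlap. In CDSUM, CDWIN and CQSUM its libraries overlapped DMSO, at 213 to 336 CPM, with differences of −0.14, 0.11 and −0.15. It was called higher in all 4 with the trends removed (0.66, 0.92, 0.60 and 1.31). FADS1 and FADS2 share 490 exon bases. No source says whether the libraries kept strand, and reads from those bases cannot be assigned to either gene.

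**Figure D2:**
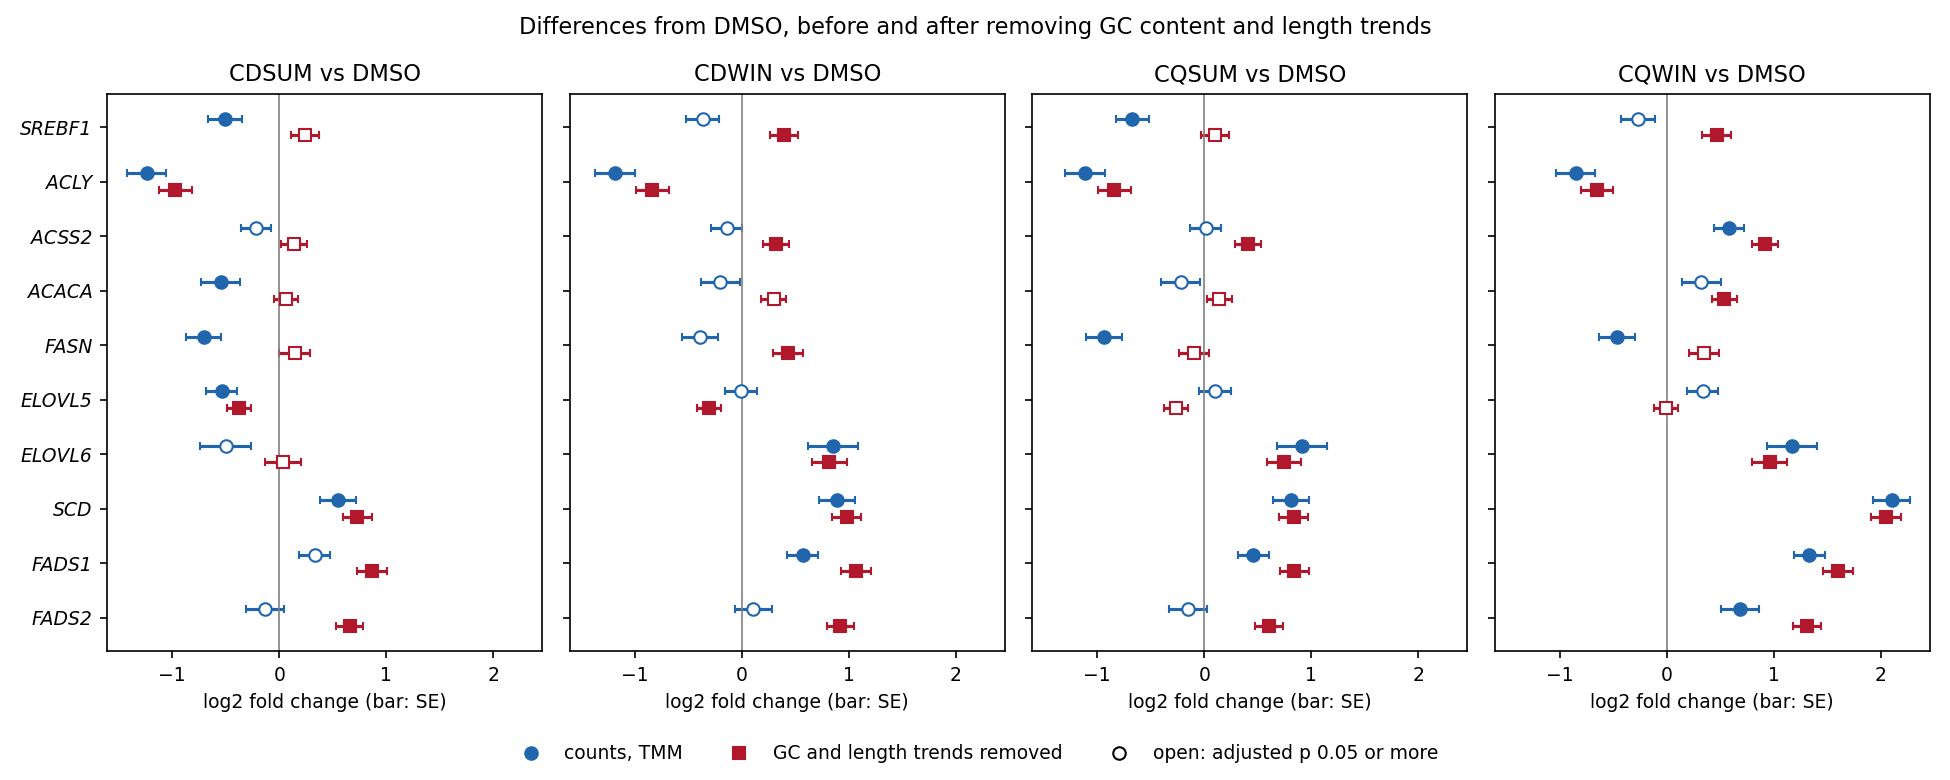
Log2 fold change of the 10 genes against DMSO in each PM2.5 group (horizontal axes; bars are standard errors), from the counts (circles) and with GC and length trends removed (squares); filled symbols have an adjusted p under 0.05. SCD is filled on the right and ACLY on the left in every panel with both symbols, whereas SREBF1 and FASN in CDSUM pass from −0.51 and −0.71 to 0.24 and 0.14.

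Comparisons between PM2.5 groups asked whether the SUM and WIN codes, or the CD and CQ codes, differed. CQWIN and CQSUM differed in few genes: 3 were called, 0.0193% of those tested, and 597 had an unadjusted p under 0.05. Without the filter on low counts, 42 were called. SCD (1.29 ± 0.17, adjusted p = 0.00585) and FADS1 (0.87 ± 0.14, adjusted p = 0.0454) were higher in CQWIN. The third was ID3, an inhibitor of helix-loop-helix transcription factors, lower by −1.16 ± 0.18 (adjusted p = 0.0227). CQWIN lay above CQSUM without overlap for 8 of the 10 members, ACLY and ELOVL6 being the exceptions, and for 4.09% of all genes. The members' median difference was 0.51 and that of all genes 0.02. FADS2 differed by 0.84 ± 0.18 but was not called (adjusted p = 0.266).

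These calls rested on the spread shared by all 5 groups. In a fit of CQSUM and CQWIN alone the values were nearly equal (1.29 for SCD and 0.88 for FADS1), but no member was called and 7 had an unadjusted p under 0.05, while DESeq2 called 3. The SCD call also ended without CQSUM 2 (1.19) or CQSUM 3 (1.33). Trend removal left 0.0385% of all genes called, SCD (1.21) among them. FADS1 was not called there (0.76, adjusted p = 0.0625), or without CQSUM 1 (0.87), CQSUM 2 (0.84), CQSUM 3 (0.91), CQWIN 1 (0.86) or CQWIN 3 (0.79).

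SCD was also lower in CDWIN than in CQWIN, by −1.21 ± 0.17 (adjusted p = 0.0137), where 2 genes (0.0128%) were called in all, the other being ID3 (1.17). The call ended without CDWIN 1 (−1.27), CDWIN 2 (−1.12) or CDWIN 3 (−1.25). Without CQWIN 1, 1885 genes and 5 members were called. A fit of these groups alone called no member (5 at an unadjusted p under 0.05 in edgeR), while DESeq2 called 3. FADS1 differed by −0.76 ± 0.14 (adjusted p = 0.0863) and ACSS2 by −0.72 ± 0.14 (adjusted p = 0.121), and neither was called, although their libraries did not overlap.

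Between CDWIN and CDSUM, where 8.42% of all genes were called, ELOVL6 was 2.55-fold higher in CDWIN (1.35 ± 0.24, adjusted p = 0.00139) and ELOVL5 1.45-fold higher (0.53 ± 0.15, adjusted p = 0.0288). ELOVL6 stayed called without any single library and with the trends removed (0.78, with 3.89% of genes called, 65.2% of them higher in CDWIN against 97.1% from the counts), whereas ELOVL5 was then 0.07 and not called, and without CDSUM 1, CDSUM 2, CDSUM 3, CDWIN 1 or CDWIN 3 it was 0.58, 0.51, 0.50, 0.52 or 0.37 and not called. Between CDSUM and CQSUM, with 13.9% of genes called, the same 2 elongases were lower in CDSUM, ELOVL6 by −1.41 ± 0.24 (adjusted p = 0.00054) and ELOVL5 by −0.64 ± 0.15 (adjusted p = 0.00516). With the trends removed, where 9.47% of genes were called (48.7% of them higher in CDSUM, against 1.21% of the calls from the counts), these were −0.71, still called, and −0.11, not called. The longest transcripts of ELOVL5 and ELOVL6 are 41.7% and 41.2% GC, the lowest of the 10.

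Whether the step from SUM to WIN differed between CD and CQ was tested as an interaction, for which 2.02% of all genes were called. SCD rose by 0.34 from CDSUM to CDWIN, which was not called, and by 1.29 from CQSUM to CQWIN. The difference of these steps was −0.95 ± 0.24 (adjusted p = 0.0419), and SCD was the member called. The call ended without CDSUM 1, CDSUM 2, CDSUM 3, CDWIN 1, CDWIN 3, CQSUM 1, CQSUM 2, CQSUM 3 or CQWIN 3, at values between −1.01 and −0.82. Over all genes the interaction called 315, but 0 without CDSUM 2 or CDWIN 3 and 883 without CDWIN 2 (1971 had an unadjusted p under 0.05). Of the 315 calls 98.1% were positive, and 83.3% with the trends removed. ELOVL6 had the opposite sign (1.09 ± 0.33, adjusted p = 0.103) and was not called.

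SCD and FADS1 followed each other across the 15 libraries. Pearson's r of log2 CPM was 0.991, Spearman's rho was 0.986, and FADS1 was the gene nearest to SCD among 9704 protein-coding genes at 5 CPM or more. Without the 3 CQWIN libraries r was 0.967 over 12, and with the trends removed over all 15 it was 0.915. Next nearest to SCD were LPIN1 (0.958), a phosphatidate phosphatase, and CLMN (0.943). FASN and SREBF1 also ran together, with r = 0.939, and it was 0.872 with the trends removed. Other pairs depended more on the trends. For SCD with SREBF1, r was −0.152 from the counts and 0.643 with the trends removed. For FADS1 with FADS2 it was 0.688 (−0.271 without CQWIN) and 0.939. FASN and SREBF1 were not each other's nearest genes. SREBF1 was nearer to CRAT (0.944) and MYRF (0.943), and FASN to MYRF (0.954), CIC (0.946) and TMEM94 (0.945). The 3 genes nearest to FADS2 were DHCR7 (0.923), LSS (0.916) and SREBF2 (0.902), enzymes of cholesterol synthesis and its regulator. ELOVL6 was nearest to ACSL4 (0.981), which activates long-chain fatty acids, and ACLY to NCAPD2 (0.988), a condensin subunit. These correlations are descriptions without a test, since the libraries share groups and GC slopes.

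**Figure D3:**
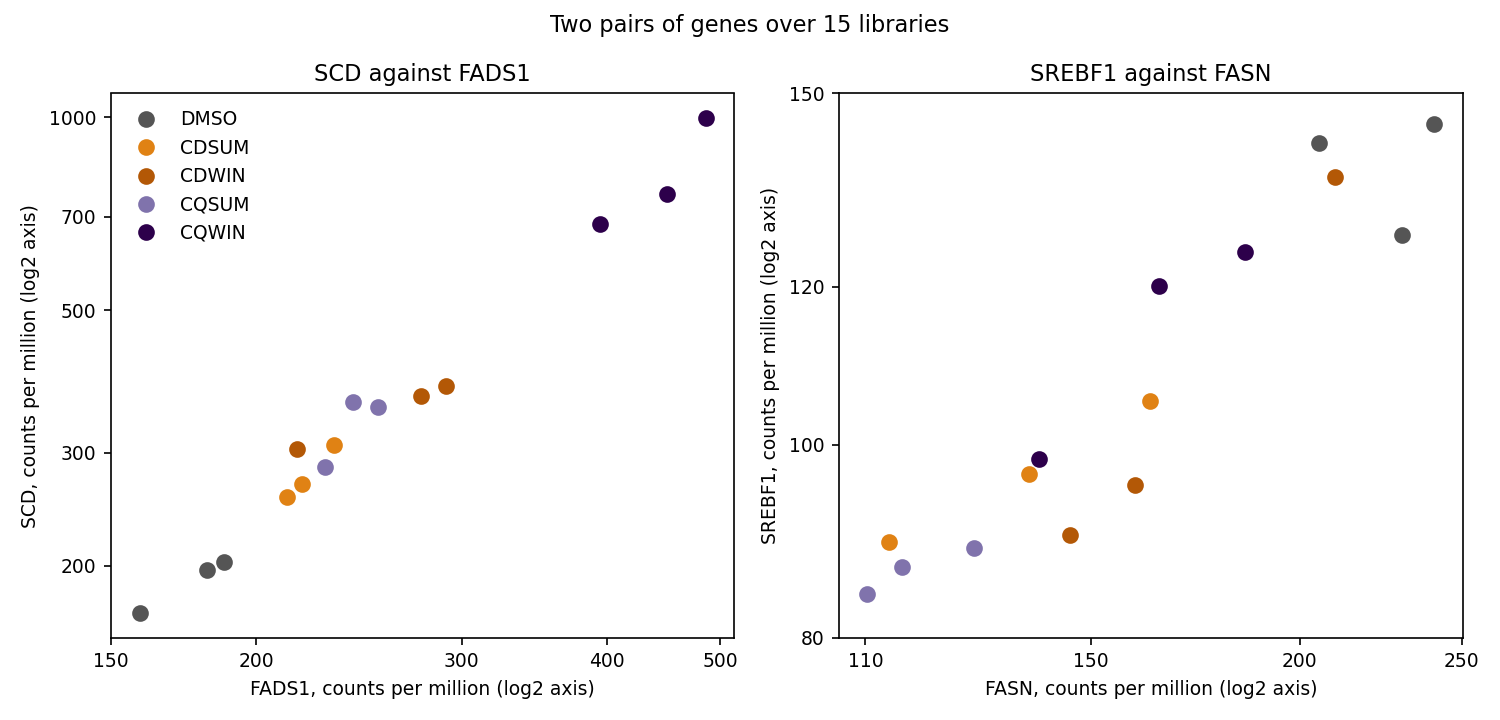
SCD against FADS1 (left) and SREBF1 against FASN (right) in CPM on log2 axes; each point is 1 of 15 libraries, coloured by group. SCD and FADS1 form a single rising band (r = 0.991) with CQWIN at its top and DMSO at its foot. For SREBF1 and FASN (r = 0.939) the DMSO points lie at the top, with CDWIN 2 among them.

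Genes around the pathway were followed in 6 lists, given in the order CDSUM, CDWIN, CQSUM, CQWIN. Beside their counts stand the shares of all genes called higher in those groups, 15.3%, 18.4%, 13.7% and 11.6%, and lower, 31.2%, 23.3%, 18.8% and 15.8%. List counts with the trends removed stand beside other shares, 20.8%, 17.9%, 9.37% and 8.1% higher. The shares lower were then 16.9%, 13.7%, 8.76% and 7.21%. Of 10 genes that control SREBP, 3 were called higher and 3 lower in CDSUM, 4 and 2 in CDWIN, 2 and 2 in CQSUM, and 4 and 1 in CQWIN. After trend removal 5, 5, 4 and 4 were called higher, and each gene called lower from the counts no longer was. INSIG1, which holds SREBP in the endoplasmic reticulum and is itself an SREBP target, rose in all 4, from 8.73 ± 0.694 CPM in DMSO to 50.3 ± 9.90 CPM in CDSUM and 76.8 ± 1.57 CPM in CQWIN. Its log2 fold changes were 2.41 to 3.14, and 2.27 to 2.96 with the trends removed, all called. SCAP, the escort of SREBP to the Golgi, was lower in all 4 by −0.90 to −0.65, but with the trends removed it was called in none (−0.25 to 0.02). INSIG2 was called higher in CDWIN (1.04), CQSUM (1.04) and CQWIN (1.02). After trend removal it was called in CDSUM (0.76) and CDWIN (0.70) but not in CQSUM (0.55, adjusted p = 0.0912) or CQWIN (0.63, adjusted p = 0.0655). SREBF2, which encodes the SREBP of cholesterol synthesis, was called in CQWIN (0.71, adjusted p = 0.00998), and with the trends removed in all 4 (0.71 to 1.20). The list's median was 0.00, 0.09, 0.19 and 0.34, and 0.49, 0.48, 0.34 and 0.34 with the trends removed.

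Of 9 tested genes of acetyl-CoA and malonyl-CoA supply among 11 listed, 2 were called higher and 2 lower in each group, and with the trends removed 4, 3, 2 and 3 higher and at most 2 lower. IDH1, a cytosolic source of NADPH, rose in all 4 by 0.72 to 1.45, and OXSM, the mitochondrial condensing enzyme, by 0.59 to 1.18. IDH1 stayed called in all 4 with the trends removed, and OXSM in 2. OXSM overlaps NGLY1 on the other strand. ACSS1, the mitochondrial counterpart of ACSS2, was lower in all 4 by −0.93 to −0.66, and in none with the trends removed. ACACB, the mitochondrial form of the carboxylase, was called lower in CDSUM (−0.74) and CQSUM (−0.64). With the trends removed it was 0.068 and 0.024 in these groups. The list's medians were −0.22, −0.12, −0.19 and 0.01, and 0.068, 0.22, 0.15 and 0.23 with the trends removed.

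Among 13 other elongation and desaturation genes, 3 were called higher and 3 lower in CDSUM, 4 and 2 in CDWIN, 4 and 1 in CQSUM, and 3 and 3 in CQWIN. These became 3 and 1, 3 and 2, 2 and 1, and 2 and 1 with the trends removed. HACD3 and HACD4, dehydratases of the elongation cycle, were higher in all 4, by 0.53 to 0.82 and by 1.25 to 1.41. HACD4 stayed called in all 4 with the trends removed and HACD3 in 2. HSD17B12, a reductase of that cycle, was called higher in CDWIN (0.66), CQSUM (0.79) and CQWIN (0.96), and its value in CDSUM was −0.45. HACD1, another dehydratase, was called higher in CDSUM (0.95), CDWIN (0.86) and CQSUM (0.61). With the trends removed it was called in CDSUM (1.15) but not in CDWIN (0.57, adjusted p = 0.0637) or CQSUM (0.20). The list's medians were −0.38, 0.09, 0.24 and 0.16, and 0.19, −0.035, −0.015 and −0.0026 with the trends removed.

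Of 14 tested genes of fatty acid activation and glycerolipid synthesis, 8 were called in CDSUM, each of them lower, while DESeq2 size factors left 4 lower. The counts were 1 higher and 4 lower in CDWIN, 3 and 5 in CQSUM, and 5 and 4 in CQWIN. With the trends removed 1 was called higher and 2 lower in CDSUM, 2 and 2 in CDWIN and CQSUM, and 4 and 1 in CQWIN. DGAT2, which makes triglyceride, was lower in all 4 by −1.24 to −0.95, and AGPAT1 and AGPAT3, acyltransferases of phosphatidate synthesis, by −0.78 to −0.59 and −1.07 to −0.59. With the trends removed, DGAT2 stayed called in 3 groups, AGPAT1 in 2 and AGPAT3 in 1. In CDSUM the acyltransferase GPAM had the largest change (−1.36), and in CQWIN LPIN1 did (1.27). ACSL4 was called higher in CDWIN (0.79), CQSUM (0.88) and CQWIN (1.16), and its value in CDSUM was −0.61 and not called. The calls of GPAM in CDSUM (−0.66) and LPIN1 in CQWIN (1.40) held with the trends removed. So did those of ACSL4 in CDWIN (0.65), CQSUM (0.58) and CQWIN (0.87). The list's medians were −0.57, 0.06, 0.05 and 0.27, and 0.015, 0.17, 0.18 and 0.31 with the trends removed.

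Of 19 tested genes of fatty acid oxidation, 4 were called higher and 3 lower in CDSUM, 7 and 2 in CDWIN, 5 and 1 in CQSUM, and 8 and 1 in CQWIN. Trend removal left 8, 8, 5 and 6 called higher and at most 2 lower. CPT1C (1.24 to 1.57), a carnitine palmitoyltransferase form known mainly from brain, the carnitine carrier SLC25A20 (0.61 to 0.81) and the electron carrier subunit ETFA (0.95 to 1.29) were higher in all 4 and stayed called in all 4 with the trends removed. ETFDH, which takes electrons from that carrier, was called lower in CDSUM (−1.32), also with the trends removed (−1.18). The list's medians were 0.04, 0.17, 0.21 and 0.35, and 0.24, 0.39, 0.31 and 0.34 with the trends removed.

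Of 7 genes of the AMP-activated kinase, which inhibits ACACA by phosphorylation, 1 was called higher and 4 lower in CDSUM, and 2 and 2 in each other group. The counts became 2 and 3 in CDSUM, 2 and 1 in CDWIN and CQSUM, and 1 and 1 in CQWIN with the trends removed. The catalytic subunits PRKAA2 (−1.39) and PRKAA1 (−1.01) were called lower in CDSUM, also with the trends removed (−0.65 and −0.47). PRKAG1 was higher in all 4 (0.62 to 0.87) and PRKAB1 lower (−0.69 to −0.52). PRKAG2, a regulatory subunit, was called higher in CDWIN (0.58), CQSUM (0.55) and CQWIN (0.68). With the trends removed it was called higher in all 4 (0.61 to 0.75). STK11, the upstream kinase, was lower in all 4 (−0.76 to −0.51) but not with the trends removed (0.06 to 0.33). The medians of the kinase list were −0.51, 0.00, 0.25 and 0.28, and 0.058, −0.052, 0.033 and 0.058 with the trends removed.

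**Figure D4:**
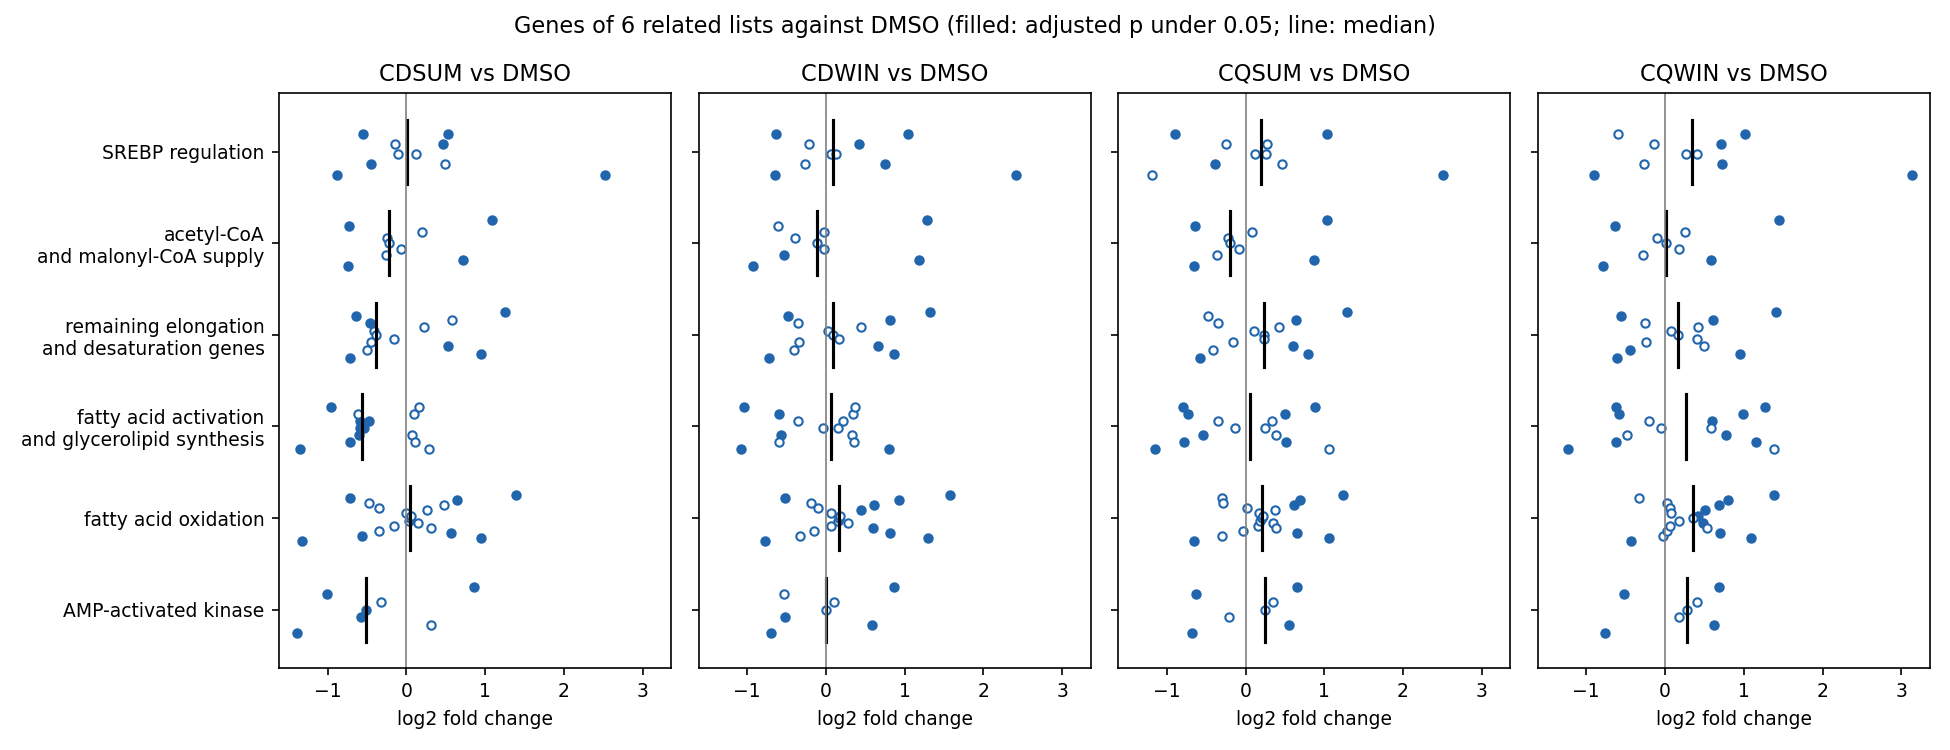
Log2 fold change against DMSO (horizontal axes) of the tested genes of 6 lists in the 4 PM2.5 groups; each point is 1 gene, filled where its adjusted p is under 0.05, and the black line is the list's median. The rightmost point of the SREBP regulation list is INSIG1, at 2.41 to 3.14 in the 4 groups.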

How the data were processed

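RNA-seq of 15 A549 libraries was analysed from 1 deposited table. Its columns are, per the file headers, the authors' raw read counts and their FPKM (scaled by gene length and a read total per library). That total differed from the summed counts, such as 21906800 beside 18362354 in DMSO 1 and 15992400 beside 18065175 in CDSUM 1. The labels name 2 library kits and mouse genome builds, whereas all 58735 gene IDs are human Ensembl IDs with the coordinates of GENCODE 29 (GRCh38). The aligner, counter and strand are not given in the sources used here.

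Counts were filtered with filterByExpr (15565 genes kept), scaled by TMM and tested in edgeR 4.0.16 (R 4.3.3) with 1 coefficient per group over all 15 libraries. Groups came from the treatment labels. Adjusted p-values cover all genes tested. Standard errors were derived from the fold change and the F value of the test. Intervals are 95%, from that standard error and a t distribution with the 10 residual degrees of freedom. The test itself adds degrees of freedom by sharing spread over genes. Intervals are therefore wider than the unadjusted p implies. CPM are per TMM-scaled library. The common biological coefficient of variation was 20.5%. FPKM served only to compare genes with each other.

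Alternatives were DESeq2 1.42.0 and its size factors, no filter, a filter of 5 CPM in 3 libraries, a replicate block, the compared groups alone, CDWIN 2 and CQWIN 3 left out, each library left out, and trends with GC content and length removed per library (natural splines, 6 degrees of freedom each). Correlations with trends removed were added after seeing the data. The code was tested on simulated data. List genes are named where called the same way in all 4 comparisons with DMSO, or among the 2 largest called changes of a comparison. SREBF2 is named as a gene nearest to FADS2. Members and lists were chosen with earlier results of these data known.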

Additional observations from a re-analysis of the deposited data

Results flagged for a closer look

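For SCD the change from the SUM to the WIN code differed between the CD and CQ groups by −0.95 on the log2 scale (standard error 0.24, adjusted p = 0.0419 in edgeR's quasi-likelihood test, CD step minus CQ step). It drew attention because the difference itself passed the test. SCD stood at 278 ± 27.5 CPM in CDSUM and 351 ± 41.4 CPM in CDWIN (SD, n = 3), and at 333 ± 41.5 CPM in CQSUM and 813 ± 164 CPM in CQWIN. CQWIN 3 was the highest library, and without it the difference was −0.82 and not called. The result did not hinge on that library alone: of 12 fits that each left out 1 library, 3 kept the call. It was also not called in a fit of the compared groups only.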

How the results depend on the processing

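Of 1320 recomputed log2 fold changes of the 10 genes, 1162 kept direction and side of the threshold, 70 lost a call, 36 gained one and 52 changed sign; a filter of 5 CPM changed none of its 90. The cause of each change was not tested.

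Members called against DMSO became 2 higher and 3 lower in CDSUM with DESeq2 size factors and with DESeq2, 2 and 2 without a filter, 2 higher with the compared groups only or without CDWIN 2 and CQWIN 3, and 3 and 2 with the trends removed. CDWIN had 7 and 2 with the trends removed and 3 lower without CDWIN 2 and CQWIN 3. CQSUM had 5 and 1 with the trends removed. CQWIN had 1 lower with DESeq2 size factors, DESeq2, no filter, the compared groups only or the trends removed. CDWIN against CDSUM gave 1 with DESeq2 size factors, no filter, the compared groups only or the trends removed. CQWIN against CQSUM gave 1 with DESeq2 size factors or the trends removed and 0 with the compared groups only. CDSUM against CQSUM gave 1 without a filter or with the trends removed. CDWIN against CQWIN gave 3 without a filter or with DESeq2, 0 without CDWIN 2 and CQWIN 3 (4 at an unadjusted p under 0.05 in edgeR) and 0 with the compared groups only (5 unadjusted). The interaction gave 0 with the compared groups only (5 unadjusted) and 3 with DESeq2.

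Leaving out 1 library gave, for members called in CDSUM, 0 to 1 higher and 3 to 5 lower, in CDWIN 1 to 3 lower, and in CQWIN 1 lower. It gave 1 to 2 for CDWIN against CDSUM, 0 to 2 for CQWIN against CQSUM, 0 to 5 for CDWIN against CQWIN and 0 to 2 for the interaction. It moved values across 0 for ELOVL5 (−0.17 to 0.15) and FADS2 (−0.082 to 0.21) in CDWIN, ACSS2 in CQSUM (−0.0017 to 0.027), ACLY (−0.0060 to 0.13) and SREBF1 (−0.066 to 0.25) in CDWIN against CDSUM, FADS2 in CDSUM against CQSUM (−0.041 to 0.060), and SREBF1 (−0.30 to 0.018) and FASN (−0.10 to 0.18) in CDWIN against CQWIN.

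With the trends removed, signs changed in CDSUM for SREBF1 (0.24), ACSS2 (0.14), ACACA (0.064), FASN (0.14), ELOVL6 (0.037) and FADS2 (0.66), in CDWIN for SREBF1 (0.39), ACSS2 (0.32), ACACA (0.30) and FASN (0.43), in CQSUM for SREBF1 (0.10), ACACA (0.14), ELOVL5 (−0.27) and FADS2 (0.60), in CQWIN for SREBF1 (0.46), FASN (0.35) and ELOVL5 (−0.0095), for FADS1 in CDSUM against CQSUM (0.027) and for ELOVL5 in the interaction (−0.19). Other sign changes were of uncalled values near 0. FADS2 in CDSUM was 0.00982 with DESeq2 size factors, 0.077 without a filter, 0.094 with the compared groups only and 0.0089 with DESeq2. ELOVL5 in CDWIN was 0.062, 0.015, 0.030 and 0.061 in that order, and 0.15 without CDWIN 2 and CQWIN 3. ACSS2 in CDSUM was 0.012 with the compared groups only. ACLY in CDWIN against CDSUM was −0.019 with DESeq2 size factors and with DESeq2 and −0.12 without a filter, where SREBF1 was −0.021 and ACSS2 −0.10. ACLY and FADS1 in CDSUM against CQSUM were 0.086 and 0.079 without a filter. Without CDWIN 2 and CQWIN 3, FADS2 in CDWIN was −0.082, SREBF1 in CDWIN against CDSUM −0.066, ELOVL6 in CDWIN against CQWIN 0.0015 and ACACA in the interaction 0.11.

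Over all genes, CQWIN against CQSUM called 3 genes, and 1, 42, 6, 0 and 11 with DESeq2 size factors, no filter, the trends removed, the compared groups only and DESeq2. CDWIN against CQWIN called 2, and 1, 522, 7, 0 and 42 in that order. The interaction called 315, and 569, 78, 48 and 544 with no filter, the trends removed, the compared groups only and DESeq2. Without CDWIN 2 and CQWIN 3 these last comparisons called 0 and 896, and CDWIN against CDSUM 2187, beside 1310. The compared groups only called 3945 genes higher in CDSUM beside 2381, and 800 higher and 1449 lower in CQWIN beside 1804 and 2460. No filter left 3005 lower in CDSUM beside 4858.

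Replicate numbers did not pair the libraries: correlations of same-numbered deviations ran from −0.414 to 0.395, 11 of 30 were over 0.1, and 5 of 15 libraries correlated best with their own number. The replicate block gave 2 members higher in CDSUM and 2 members called, with 4 genes over all, for CDWIN against CQWIN.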
